A study of Rattus norvegicus with 17 samples.

Results

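Gene expression in the hippocampus was compared between untreated rats kept in 2 laboratories that had obtained them from the same breeder, Site #1 (Legacy) and Site #2 (Trinity). The samples were chosen by the site named in their titles, which gave 5 samples from Site #1 and 6 from Site #2, 11 of the 17 in the whole series. The remaining 6 came from Site #3, where the rats had another vendor. All 11 rats were male SAS Sprague Dawley animals from the same Charles River breeding site, fed the same chow there and, later, the same chow in both laboratories. They were single-housed and handled daily, and had the same age on arrival, 8.3 weeks. They were killed after the same stay in the laboratory, by rapid decapitation without anesthesia. Across the series as a whole, age on arrival ranged from 8.0 to 8.3 weeks and the stay from 18 to 27 days. The lower age and the longest stay were those of Site #3. Each sample was the whole hippocampi of 1 rat, dissected in saline, from which polyadenylated RNA was sequenced. The rats of Site #1 had been trucked for days across time zones and lived on paper bedding in individually ventilated cages, while those of Site #2 had travelled for hours and lived on wood chips in smaller stand-alone cages. The chow supplier differed as well. Every such factor, and anything else that separated the laboratories, coincided with the site, so that their parts cannot be told apart, and the p-values below measure differences between the rats of these sites only.

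The hippocampus is the cortical region best known for its part in forming memories of places and events. Its pyramidal neurons (areas CA1, CA2 and CA3) and the granule neurons of the dentate gyrus signal with glutamate, interneurons with GABA, and astrocytes, oligodendrocytes, microglia and vessels surround them. Some of its genes respond within hours to neuronal activity and to stress hormones.

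Expression was given as normalized log2 values. Their normalization step is not named, so differences are given in log2 units and not as folds, since such a step may shrink them. The files list 32494 genes, of which 9830 had no value other than 0 in the 17 libraries, and the remaining 22664 were tested. Read counts were not used here, so the depth behind each value is unknown from them. The normalization compressed the low values: the median standard deviation (SD) between rats within a site was 0.012 for genes with a mean under 5 and 0.099 for those with a mean from 8 to under 10. Statements on likeness were therefore restricted to 10680 genes, those whose mean over the 11 libraries was 8 or more. Identifiers could be paired with a gene symbol for 1123 of the 22664 tested genes, 726 of them with a mean of at least 8, and genes are named from these. The neuronal genes Grin1 and Rbfox3 were among the well expressed genes of every library, as were Mpped1 of CA1 and C1ql2 of the dentate gyrus.

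No gene differed between Site #1 and Site #2 at an adjusted p under 0.05 in limma, 0 of 22664 or 0%, and the smallest adjusted p was 0.227. Leaving out 1 library gave 0 or 1 genes: ENSRNOG00000047790, a gene of very low value, without replicate 5 of Site #1, and ENSRNOG00000018867 without replicate 1 of Site #2, both named after their values were seen. ENSRNOG00000018867 had means of 6.36 at Site #1 and 6.05 at Site #2, and the libraries of the sites did not overlap. At an unadjusted p under 0.05 there were 1527 genes (6.74%), of which 799 (3.53%) were higher and 728 (3.21%) lower at Site #2. This split depended on the scaling: when each library was centred on its own median, 1009 of 1337 such genes were higher at Site #2 and 328 lower. That centring moved the median difference over all tested genes from -0.00010 to 0.019, towards Site #2. Under quantile normalization 943 of 1619 such genes were higher and 676 lower. Among the 10680 well expressed genes, 1074 (10.1%) were at an unadjusted p under 0.05, 617 of them higher at Site #2 and 457 lower. The share was 2.99% for genes with a mean under 5 and 11.4% for those at 12 or more. The authors compared these sites with DESeq2 on read counts, at the same adjusted p, and did list differentially expressed genes. Limma on the deposited log2 values is a different test, so its 0 genes do not show that the sites were the same.

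Over the well expressed genes the median absolute difference was 0.048 log2 units, 95% of the genes were within 0.16 and 99% within 0.23. A pooled SD between rats of the same site larger than the difference between the sites was seen for 8391 of the 10680 genes (78.6%). Only 42 of the 1074 genes at an unadjusted p under 0.05 differed by more than 0.25 log2 units. Differences over 0.5 were found for 4 genes without a symbol here, named after their values were seen: ENSRNOG00000010079, ENSRNOG00000016275 and ENSRNOG00000017286 were lower and ENSRNOG00000058006 was higher at Site #2. Their pooled SDs were 0.61 to 0.99, the libraries of both sites overlapped for all 4, and 1 of the 4, ENSRNOG00000017286, had an unadjusted p under 0.05 in limma.

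**Figure D1:**
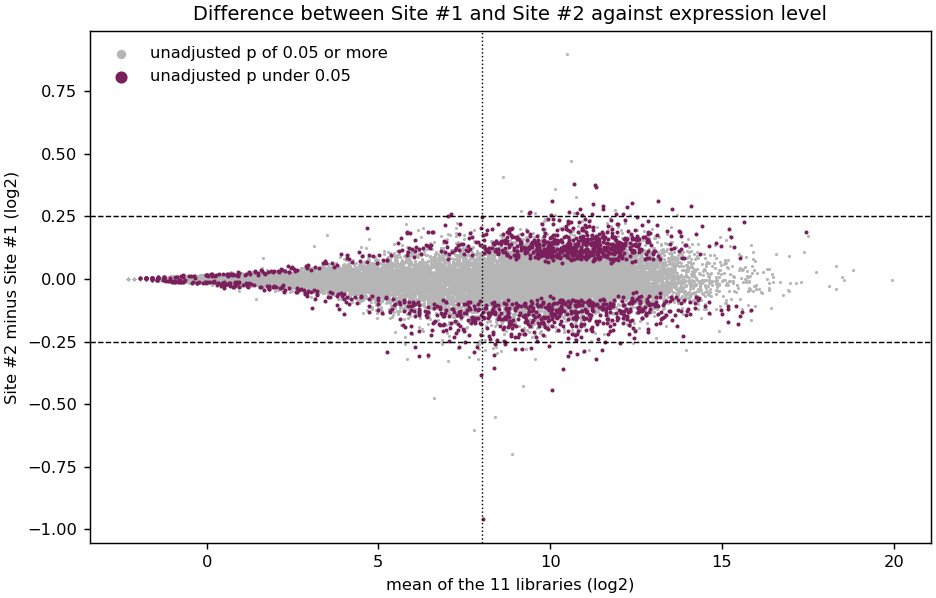
Difference in mean log2 expression (Site #2 minus Site #1, vertical axis) against the mean log2 value of the 11 libraries (horizontal axis) for the 22664 tested genes, 1 point per gene, with the 1527 genes at an unadjusted p under 0.05 in purple. Dashed lines mark 0.25 log2 units in either direction and the dotted line a mean of 8; few genes lie outside the dashed lines, and low values are compressed towards 0.

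Likeness was read from the 95% confidence interval of each difference. The whole interval lay within 0.25 log2 units of 0 for 8589 of the 10680 well expressed genes (80.4%). For the other 2091 the interval crossed that margin, so that neither likeness nor a difference beyond it was shown, and for 0 genes the interval lay wholly outside it. The 2 descriptions overlapped: 638 of the 1074 genes at an unadjusted p under 0.05 were also alike within 0.25 log2 units, as their difference was small and their rats close together. The share alike was 76.1% for means from 8 to under 10, 82.5% from 10 to under 12 and 84.1% from 12 upwards. A margin of 0.15 log2 units left 3937 genes alike. The libraries of the sites did not overlap for 111 well expressed genes (1.04%), 57 higher and 54 lower at Site #2.

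Of the 726 well expressed genes with a symbol, 72 (9.92%) had an unadjusted p under 0.05, 21 higher and 51 lower at Site #2, the median difference was -0.023 and 523 (72.0%) were alike. Median centring of the libraries turned this split to 27 higher and 19 lower, with a median of -0.0037. Quantile normalization kept its direction, at 29 higher and 47 lower with a median of -0.023. Among the 726 genes, the 12 with the smallest unadjusted p were lower at Site #2 in 9 cases and higher in 3. None reached an adjusted p under 0.593 in limma, and the values are given as measured. Ppm1d, a phosphatase that ends DNA damage signalling, stood at 9.92, 9.84, 9.85, 9.88 and 9.83 in the Site #1 libraries and at 9.89 (lowest), 10.02 (median) and 10.07 (highest) at Site #2. It was thus higher at Site #2 in 5 of 6 libraries than in any library of Site #1, with a difference of 0.15 ± 0.036 (SE; limma unadjusted p = 0.0015). Plekha2, a membrane lipid-binding adaptor used as a dentate gyrus marker, had 10.24, 10.55, 10.44, 10.48 and 10.38 at Site #1 against 10.49, 10.64 and 10.72 as the lowest, median and highest of Site #2. Its difference of 0.20 (95% interval 0.069 to 0.32) came with 4 of 6 Site #2 libraries above all those of Site #1. Cpne8, a calcium-dependent phospholipid-binding protein, had a mean of 10.13 ± 0.093 (SD) in the 5 Site #1 libraries, the highest at 10.26, and 10.10, 10.38 and 10.58 as lowest, median and highest at Site #2. Here 1 library of Site #2 lay inside the range of Site #1, and the difference was 0.23 (0.075 to 0.39).

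Of the 9 genes that were lower at Site #2, Pfkp and Hadh act in energy metabolism. Pfkp, a phosphofructokinase of glycolysis rich in neurons, had 13.72, 13.79, 13.88, 13.80 and 13.78 at Site #1 and 13.63, 13.65 and 13.73 as lowest, median and highest at Site #2. The difference of -0.12 (-0.20 to -0.051) was small, but 5 of 6 Site #2 libraries lay under every Site #1 library. Hadh, an enzyme of mitochondrial fatty acid oxidation, stood at 9.25, 9.34, 9.24, 9.47 and 9.34 against 9.12, 9.18 and 9.25, again with 5 of 6 libraries of Site #2 under Site #1. Aldh1l1, the folate enzyme that marks astrocytes, had a mean of 10.15 ± 0.11 (SD) in the 5 Site #1 libraries and 9.89, 9.95 and 10.08 as lowest, median and highest at Site #2, with 5 of 6 under every Site #1 library and a difference of -0.19 (-0.30 to -0.076). Csnk1g2, a casein kinase, had a mean of 12.06 ± 0.047 (SD) in the 5 rats of Site #1 against 11.94 ± 0.041 in the 6 of Site #2, again with 5 of 6 libraries under Site #1.

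The nuclear receptor Rxra, the obligate partner of the retinoid, thyroid hormone and vitamin D receptors, had 8.88, 9.09, 9.19, 9.31 and 9.05 at Site #1 and 8.73, 8.87 and 8.98 as lowest, median and highest at Site #2. The first library of Site #1 was lower than 3 of Site #2, and the difference was -0.23 (-0.39 to -0.076). Btbd11 (-0.24), the lipid raft protein Rftn1 (-0.20), the actin regulator Kank1 (-0.16) and the zinc finger factor Tshz1 (-0.15) completed the group, each with overlapping libraries. Only 2 of the 726 genes with a symbol had sites that did not overlap, a share under the 1.04% of all well expressed genes. These were Vgll4, a cofactor of the TEAD factors of Hippo signalling, at 9.46 to 9.55 in Site #1 and 9.33 to 9.45 in Site #2, and Wdr3, a protein of ribosome assembly, at 9.97 to 10.08 and 10.08 to 10.19. For both the gap between the sites was narrower than the range within either one, and the differences were -0.090 and 0.076.

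**Figure D2:**
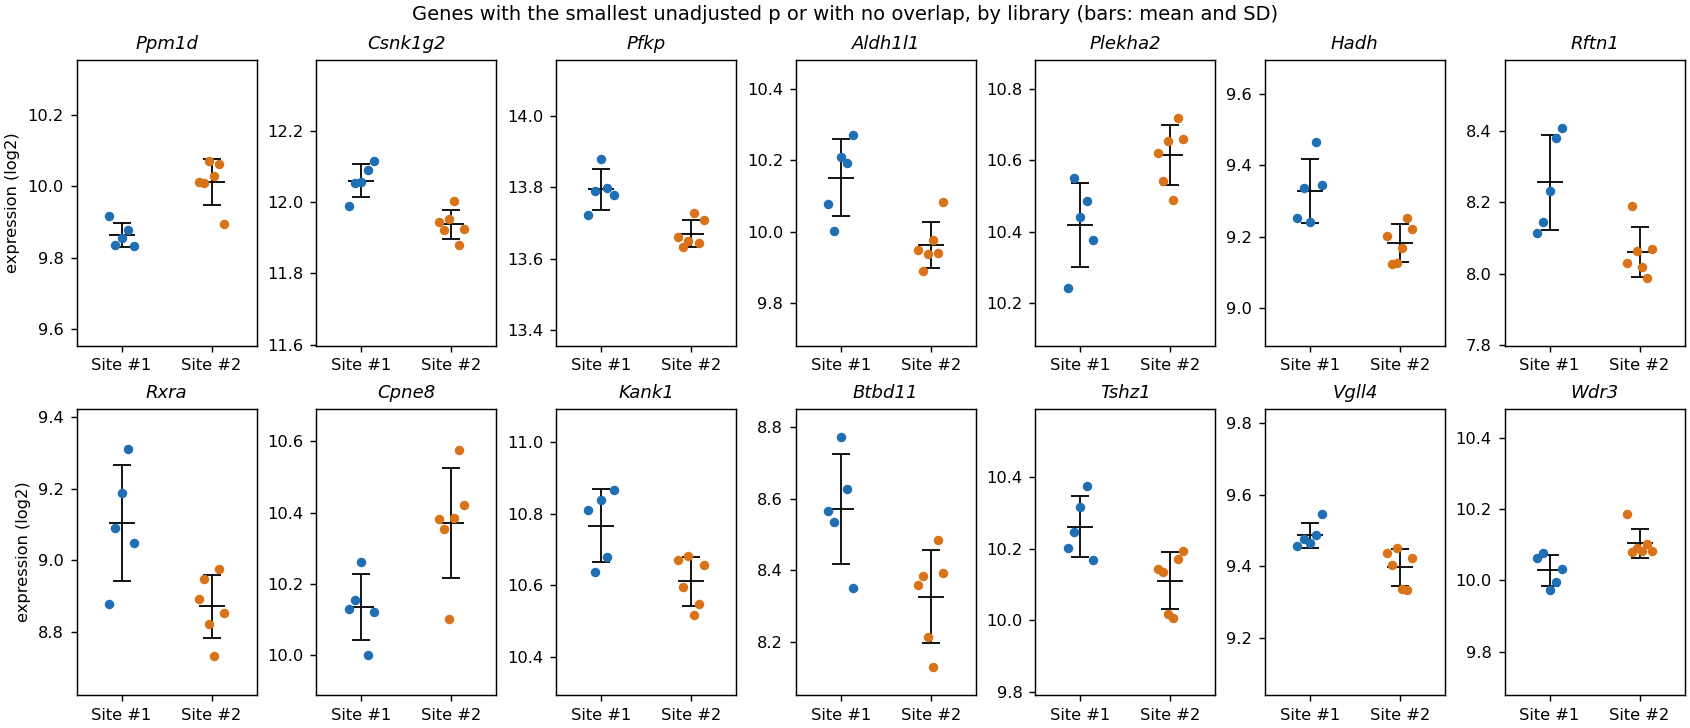
Log2 expression of the 12 genes with the smallest unadjusted p and of Vgll4 and Wdr3, whose sites did not overlap, with 1 point per library (blue Site #1, n = 5; orange Site #2, n = 6), the mean and the SD. Each panel spans 0.8 log2 units, and the sites overlap in all panels but the last 2.

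Of the well expressed genes without a symbol in the tables used here, the 2 higher and 2 lower with the smallest p are given. ENSRNOG00000028493 stood at 10.92, 10.91, 10.82, 10.92 and 10.87 at Site #1 and between 11.02 and 11.06 at Site #2, with a median of 11.05 (difference 0.16, limma adjusted p = 0.593). ENSRNOG00000023360 was likewise higher at Site #2, by 0.15. ENSRNOG00000021255 had 10.57, 10.58, 10.65, 10.62 and 10.71 at Site #1 and 10.38, 10.39 and 10.55 as lowest, median and highest at Site #2, and ENSRNOG00000014035 ranged from 12.41 to 12.60 at Site #1 and from 12.25 to 12.39 at Site #2. The libraries of the sites did not overlap for any of the 4. The nearest ones came close in ENSRNOG00000014035, at 12.41 and 12.39, but lay farther apart in ENSRNOG00000028493, at 10.92 and 11.02.

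Among the 726 well expressed genes with a symbol, the 8 whose intervals reached least far from 0 reached 0.071 to 0.078 log2 units. The actin exporter Xpo6 had 12.31, 12.29, 12.26, 12.25 and 12.20 at Site #1 and 12.18, 12.28 and 12.32 as lowest, median and highest at Site #2, a difference of -0.00073. Cul4a, the scaffold of a ubiquitin ligase, had 11.83, 11.74, 11.70, 11.70 and 11.64 against 11.71, 11.72 and 11.75, so that its 0.00012 difference hid a wider spread at Site #1. Gtf2i, a transcription factor, stood at 13.41, 13.40, 13.40, 13.33 and 13.40 against 13.33, 13.37 and 13.42. The antioxidant enzyme Txnrd1 (difference 0.0056), the RNA granule protein Tdrd7 (0.0064), the centrosomal protein Tacc2 (0.0042), the heparan sulfate sulfotransferase Hs6st1 (-0.011) and the kinase Map2k5 (-0.014) made up the rest. Their pooled SDs were 0.031 to 0.048, against a median of 0.090 over the well expressed genes.

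Among the same 726 genes, rats of the same site differed most in Col1a1, Fmod, Cd3e, Frem3, Grin2a and Ctgf. The collagen gene Col1a1 stood at 8.78, 8.78, 8.92, 8.90 and 10.95 in the Site #1 libraries and at 8.65, 8.89 and 10.64 as lowest, median and highest of Site #2. Both sites had 1 library far above the rest, replicate 5 of Site #1 and replicate 3 of Site #2, and the difference between the sites was -0.12 (-1.09 to 0.86). Fmod, a collagen-binding proteoglycan, was high in these same libraries, at 9.98 and 9.42, against at most 8.32 in the others. Ctgf, a secreted matrix protein, varied without 1 outlying library, at 8.51, 8.55, 9.63, 9.21 and 9.17 at Site #1 and 8.63, 8.87 and 9.26 at Site #2.

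The glutamate receptor subunit gene Grin2a stood at 12.63, 12.59, 12.13, 12.05 and 11.78 at Site #1 and at 11.67, 12.23 and 12.55 as lowest, median and highest at Site #2. Each site thus held libraries with high and with low values, and the difference was -0.080 (-0.51 to 0.35). The calcium channel gene Cacna1e was high and low in much the same libraries, at 12.96, 12.93, 12.56, 12.39 and 12.36 at Site #1 and 12.06, 12.57 and 13.05 at Site #2. Frem3, a matrix protein, ranged from 8.54 to 9.42 and from 8.70 to 9.90. Cd3e, known from T cells, ranged from 7.63 to 8.74 and from 7.42 to 8.55, while the pan-leukocyte gene Ptprc stayed between 7.14 and 7.44 and between 7.18 and 7.47.

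**Figure D3:**
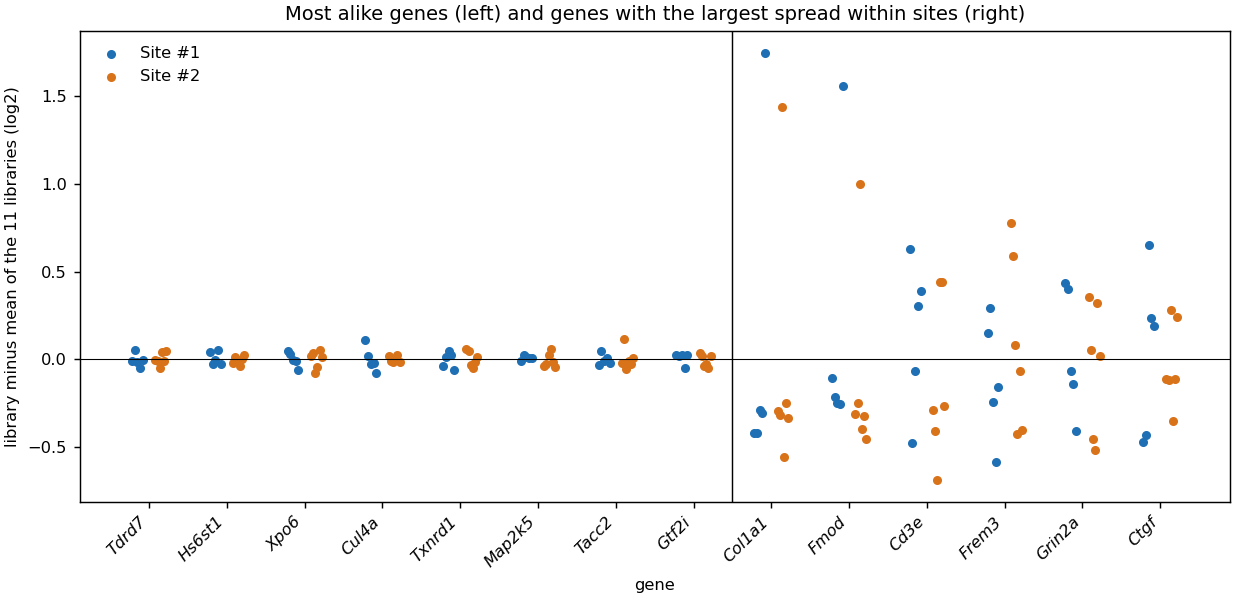
Log2 value of each library minus the mean of the 11 libraries (vertical axis) for the 8 genes with the narrowest reach of the interval and the 6 with the largest SD within sites, 1 point per library (blue Site #1, orange Site #2). The points of the first 8 genes lie close to 0, while Col1a1 and Fmod show 1 high library in each site.

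The spread between rats was alike at the sites in size. Over the well expressed genes the median SD was 0.088 at Site #1 and 0.087 at Site #2, and the SD was larger at Site #1 for 5593 of 10680 genes (52.4%). Across genes, the SDs of the sites were correlated with a Spearman rho of 0.489 (n = 10680 genes, which are not independent and whose SD depends on their level). Of the 534 genes with the largest SD at each site, 254 (47.6% of either list) were shared.

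Whole libraries were close to each other. The root mean square distance over the well expressed genes was 0.11 to 0.23 log2 units for the 10 pairs within Site #1, 0.11 to 0.23 for the 15 pairs within Site #2 and 0.11 to 0.24 for the 30 pairs between the sites. No pair was identical. The medians of these distances were 0.19, 0.16 and 0.18, so that a rat of the other site was about as far away as a rat of the same one. The site accounted for 11.5% of the squared distance, with a one-sided p of 0.281 when every possible division of the 11 libraries into 5 and 6 was counted (exact permutation).

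The distance of each library from the mean of the other libraries of its site was 0.152, 0.111, 0.113, 0.133 and 0.190 for replicates 1 to 5 of Site #1, and 0.0934, 0.129 and 0.161 as lowest, median and highest of Site #2. Replicate 5 of Site #1 lay farthest out and the ranges overlapped. The means of 0.140 ± 0.032 (SD) for the 5 and 0.126 ± 0.027 for the 6 libraries had a two-sided exact permutation p of 0.556, and without replicate 5 of Site #1 the direction turned and the difference was 8.00e-05.

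**Figure D4:**
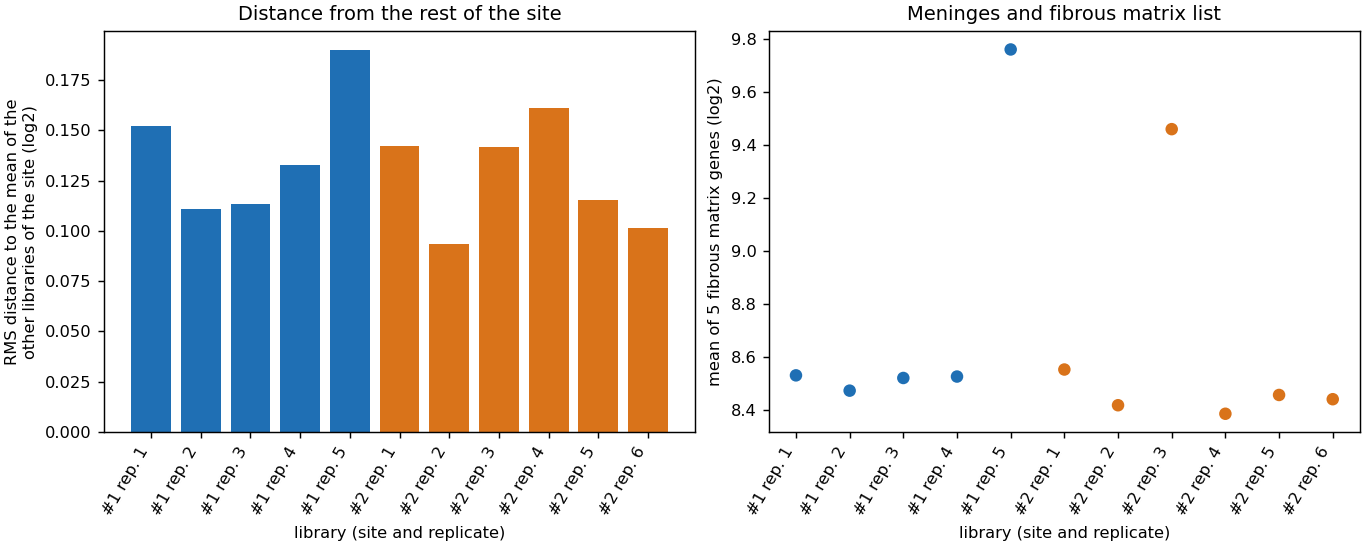
Root mean square distance (log2) of each library from the mean of the other libraries of its site over the 10680 well expressed genes (bars, left) and mean log2 value of the 5 genes of the meninges and fibrous matrix list (points, right), by library (blue Site #1, orange Site #2). Replicate 5 of Site #1 has the tallest bar at 0.190, and it and replicate 3 of Site #2 stand out in the right panel at 9.76 and 9.46.

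The meninges and fibrous matrix list held Col1a1, Col6a3, Fmod, Tnxb and Mrc2. Tnxb had the highest mean value over the 11 libraries, 9.59. Col1a1 was above it in replicate 5 of Site #1 and replicate 3 of Site #2. The list had a mean log2 value of 8.53, 8.47, 8.52, 8.53 and 9.76 in the Site #1 libraries and of 8.39, 8.45 and 9.46 as lowest, median and highest at Site #2. The list mean was thus high in 1 library of each site, and all the others lay within 0.2 log2 units of each other. Tnxb departed from this, with 9.76 in replicate 1 of Site #1 beside 10.21 in replicate 5, and 9.79 in replicate 1 of Site #2 beside 9.82 in replicate 3. The median difference of the list was -0.12 with 5 of 5 genes lower at Site #2, but without replicate 5 of Site #1 it turned to 0.082 with 4 of 5 higher, and over all libraries left out in turn it ran from -0.28 to 0.082. In the 11 libraries 0 of 5 genes had an unadjusted p under 0.05 and 0 of 4 well expressed members were alike. Aqp1 of the choroid plexus was also highest in these libraries, at 6.07 and 6.18 against 5.28 to 5.68, whereas F5, the other choroid plexus gene, was not, at 5.64 and 5.64 against 5.36 to 5.76. No member was at 0 in any library. With both libraries left out, an alternative chosen after seeing the data, 0 genes had an adjusted p under 0.05, 1155 had an unadjusted p under 0.05 and 8447 were alike, beside 1527 and 8589 in the 11 libraries.

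Cell type genes were examined as lists, and differences in them may come from fewer cells of a type or less RNA per cell, which cannot be told apart in bulk tissue. Over the 25 lists, 17 of 157 genes (10.8%) had an unadjusted p under 0.05, 4 higher and 13 lower at Site #2, against 6.74% of all tested genes and 10.1% of the well expressed ones. The lists hold mostly well expressed genes (132 of 157), and 83 of these 132 (62.9%) were alike within 0.25 log2 units, against 72.0% of the well expressed genes with a symbol, from which the lists were drawn, and 80.4% of all well expressed genes. Median centring turned the split of the list members to 9 higher and 6 lower, and quantile normalization gave 8 higher and 9 lower. No list member had an adjusted p under 0.05 in limma.

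The medians of the astrocyte, vessel and glutamate lists kept their sign under both other scalings tried, whereas that of the blood leukocyte list turned under median centring and that of the GABA list under quantile normalization.

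The 7 astrocyte genes had a median difference of -0.090, against -0.00010 over all tested genes and -0.023 over the well expressed genes with a symbol, with 6 of 7 lower at Site #2 whichever library was left out, 2 at an unadjusted p under 0.05 and 4 alike. Their median itself ran from -0.11 to -0.050 as libraries were left out in turn. Besides Aldh1l1, the filament gene Gfap had 15.24, 15.29, 15.18, 15.20 and 15.29 at Site #1 and 15.02, 15.09 and 15.30 as lowest, median and highest at Site #2. Its difference was -0.12, with 5 of 6 Site #2 libraries under those of Site #1 and the remaining one above. Slc1a3 (-0.096), Sox9 (-0.090), Ncan (-0.083) and Gpr37l1 (-0.060) were lower by less than their SDs, and the gap junction gene Gja1 was the one above 0 (0.065).

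The 6 neuronal genes were all alike within 0.25 log2 units, with a median difference of -0.053. Gad2, which makes GABA, had 13.90, 13.66, 13.48, 13.66 and 13.40 at Site #1 and 13.52, 13.59 and 13.82 as lowest, median and highest at Site #2, a difference of 0.00080. Grin1 (-0.030) and Rbfox3 (-0.041) were close to 0 too.

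Of the 6 microglial genes, Csf1r, the receptor microglia need to survive, had an unadjusted p under 0.05, at 11.91, 12.07, 12.07, 12.18 and 11.92 at Site #1 and 11.73, 11.88 and 12.01 as lowest, median and highest at Site #2. The complement gene C1qa differed by -0.16 (-0.33 to 0.015), while Selplg (-0.061), Pycard (-0.014), Tmem119 (0.025) and P2ry13 (0.044) lay on both sides of 0. None of the 4 well expressed members was shown to be alike. Tmem119 ranged from 8.80 to 9.67 at Site #2 and from 9.08 to 9.42 at Site #1. The 3 oligodendrocyte genes, Tf (-0.0059), Cers2 (0.067) and Nkx6-2 (0.11), were all alike, and of the 4 widely expressed genes Cyfip1 (-0.0065), Rac1 (0.049) and Snx6 (0.068) were, but Actr3 (0.15, -0.018 to 0.31) was not.

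In the vessel list 5 of 6 genes were lower at Site #2 and the median was -0.10, but this rested on replicate 5 of Site #1: without it 3 of 6 were lower and the median was -0.020. Flt1, a receptor for the vascular growth factor VEGF, had 11.22, 11.20, 11.16, 11.30 and 11.15 at Site #1 and 10.93, 11.06 and 11.17 as lowest, median and highest at Site #2 (limma unadjusted p = 0.012), and Plvap was the member above 0 (0.027). The list's mean was highest in replicate 5 of Site #1, at 9.70 against 9.32 to 9.42 in the other Site #1 libraries. Of the blood leukocyte genes, 0 of 6 had an unadjusted p under 0.05, with Cd3e lowest (-0.28) and Ptprc highest (0.020), and the lowest of them, Cd52, had a mean of 1.31.

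**Figure D5:**
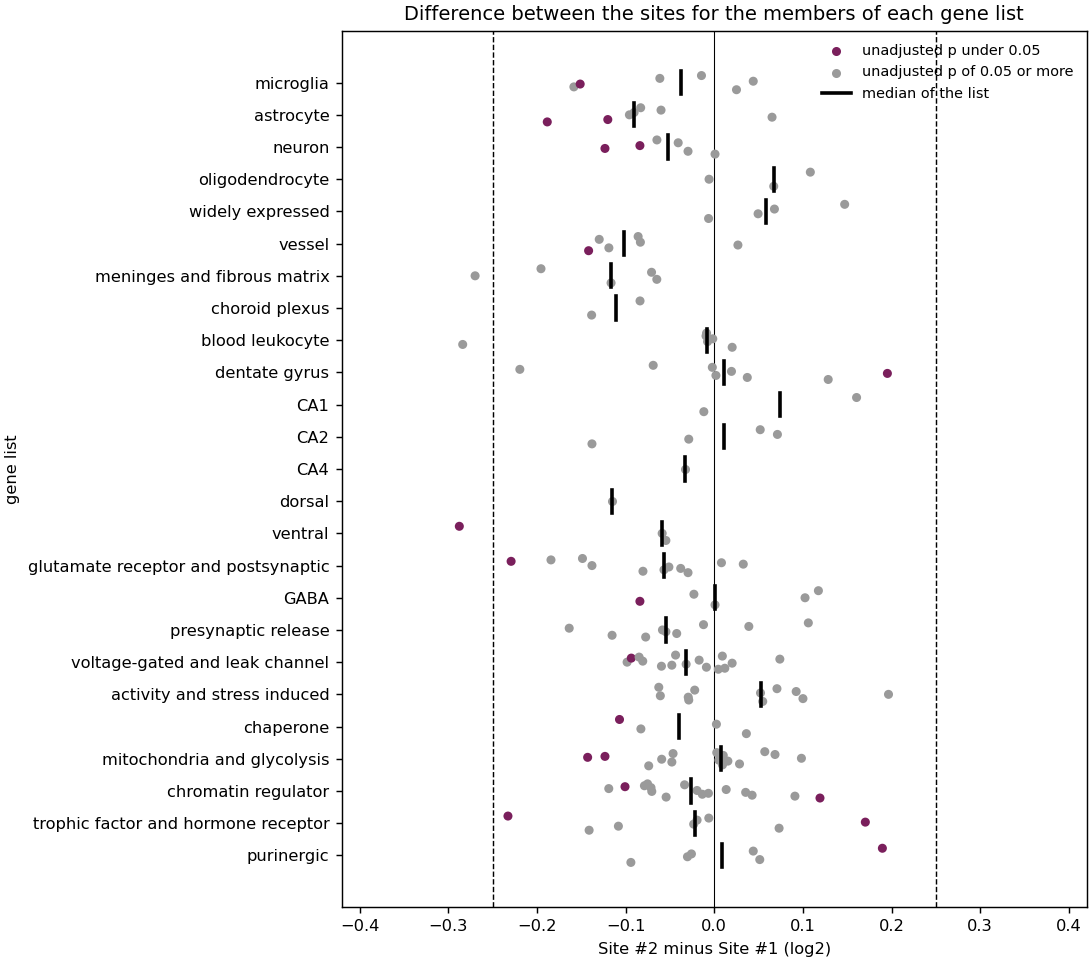
Difference in mean log2 expression (Site #2 minus Site #1, horizontal axis) of each member of the 25 gene lists (vertical axis), 1 point per gene, purple at an unadjusted p under 0.05, with the median of each list as a bar and dashed lines at 0.25 log2 units. Most points lie between the dashed lines; Cd3e, Fmod and Tenm4 lie outside.

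Markers of hippocampal areas gave no common direction. The 8 dentate gyrus genes had a median of 0.011 with 5 above and 3 below 0, from Slc4a4, a bicarbonate transporter (-0.22), to Plekha2 (0.20). For CA1, Mpped1 was alike (-0.012) and Adgrl2 was not (0.16, -0.075 to 0.40). The 4 CA2 genes ran from Cacng5 (-0.14) to Gpr12 (0.071) with a median of 0.011, and Ajap1 of CA4 was alike (-0.033). Among markers of the long axis, Syt7 of the dorsal part differed by -0.12 and the 3 ventral genes by a median of -0.059. Tenm4, a ventral gene that guides connections between neurons, had the largest difference of the 726 well expressed genes with a symbol, at 11.07, 11.22, 11.22, 11.22 and 10.97 at Site #1 and 10.49, 10.93 and 11.11 as lowest, median and highest at Site #2. That difference of -0.29 (-0.52 to -0.053) rested on 3 Site #2 libraries under the lowest of Site #1, with an SD of 0.24 at Site #2 and 0.11 at Site #1. Efnb2 (-0.055) and Nrsn2 (-0.059) completed the ventral list.

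Synaptic genes were measured in 3 lists. Of 11 glutamate receptor and postsynaptic genes, 9 were lower at Site #2, 1 of them at an unadjusted p under 0.05, and 5 were alike. The median was -0.057, against -0.023 over the well expressed genes with a symbol. Leaving out 1 library gave 7 to 11 lower and a median of -0.12 to -0.028. The list mean was 11.27 and 11.29 in replicates 3 and 4 of Site #2. It was 11.49 to 11.61 in the other libraries of Site #2 and 11.44 to 11.66 at Site #1. Leaving out both low libraries was not tried for this list. Shank1, a scaffold of the postsynaptic density, had between 13.92 and 14.05 at Site #1 and 13.52, 13.78 and 14.07 as lowest, median and highest at Site #2. Its rats were close together at Site #1 and spread at Site #2, which held both the highest and the lowest libraries (SD 0.052 and 0.22), and the difference was -0.23. Replicates 3 and 4 were the lowest of Site #2 for Shank1, as they were for Grin2a, Cacna1e, Slc4a4 and Tenm4. Cacng8, an auxiliary subunit of AMPA receptors, was the highest of the list (0.033). The presynaptic release list ran from Rims4 (-0.16) to Scamp1 (0.11) with 7 of 9 lower at Site #2, 0 of 9 at an unadjusted p under 0.05, 5 alike and a median of -0.055. With libraries left out in turn, this median ran from -0.086 to -0.015. The GABA list had a median of 0.00080, with Gabrr2 highest (0.12). Of the 15 channel genes, 1 had an unadjusted p under 0.05 and 6 of 10 well expressed members were alike, with Cacna1e lowest (-0.098) and Cacna2d1 highest (0.074).

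Genes that neurons and glia switch on with activity or stress hormones were of interest because transport and housing differed. Of the 11 on the list, 0 had an unadjusted p under 0.05, 4 of 7 well expressed members were alike and the median difference was 0.052. As libraries were left out in turn, this median ran from 0.010 to 0.078. Sgk1, a kinase induced by glucocorticoids, had 11.79, 11.63, 11.39, 11.48 and 11.61 at Site #1 and 11.60, 11.71 and 12.12 as lowest, median and highest at Site #2. The libraries overlapped, and the difference of 0.20 (-0.0075 to 0.40; limma unadjusted p = 0.058) reached both sides of 0. Ctgf was the lowest of the list (-0.063). All 4 chaperone genes were alike, from Bag3 (-0.11), which had an unadjusted p under 0.05, to Hspa4 (0.036).

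Mitochondrial and glycolytic genes and chromatin regulators were the most even of the longer lists. In each, 15 of 16 genes were alike within 0.25 log2 units, beside 80.4% of all well expressed genes, and 2 of 16 had an unadjusted p under 0.05. The metabolic list ran from the phosphofructokinase Pfkl (-0.14) to the mitochondrial ribosome gene Mrps30 (0.098) with a median of 0.0070. The member not shown to be alike was Pfkl, with a mean of 12.87 ± 0.099 (SD) in the 5 rats of Site #1 and 12.62, 12.70 and 12.95 as lowest, median and highest at Site #2, where 5 of 6 libraries were under Site #1. The chromatin list had a median of -0.026 and ran from Setd1b (-0.12), a histone methyltransferase, to Hdac2 (0.12), a histone deacetylase, with Setd1b as the member not shown to be alike. Hdac2 had 11.97, 11.95, 11.84, 11.90 and 11.82 at Site #1 and 11.90, 12.02 and 12.09 as lowest, median and highest at Site #2, 5 of 6 above every library of Site #1, and was still alike by its interval (0.030 to 0.21).

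Of the 8 trophic factor and hormone receptor genes, Rxra was the lowest and Ptn, the secreted growth factor pleiotrophin, the highest. Ptn had 13.55, 13.28, 13.29, 13.41 and 13.49 at Site #1 and 13.44, 13.58 and 13.73 as lowest, median and highest at Site #2, with 3 Site #2 libraries above Site #1 and a difference of 0.17. The median of the list was -0.021. In the purinergic list, with a median of 0.0091, Nt5e, the enzyme that makes adenosine outside the cell, was highest, at 9.41, 9.16, 9.09, 9.38 and 9.01 against 9.27, 9.42 and 9.51 (difference 0.19), and the receptor P2rx4 was lowest (-0.094).

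The authors had also measured DNA methylation at these sites and listed the genes nearest to CpGs that differed between Site #1 and Site #2. Of these genes 1048 were tested here, and 73 (6.97%) had an unadjusted p under 0.05, against 6.74% of all tested genes. Of the 542 well expressed ones, 54 (9.96%) had an unadjusted p under 0.05 against 10.1%, 36 of them lower and 18 higher at Site #2, and 388 (71.6%) were alike, against 72.0% of the well expressed genes with a symbol and 80.4% of all well expressed genes. The median difference was -0.021, against -0.023 over the well expressed genes with a symbol and -0.0018 over all well expressed genes. These values were thus near those of the genes with a symbol. Their split of 21 higher and 51 lower turned under median centring but not under quantile normalization. The list had been chosen on rats of the same sites and names most of the genes with a symbol, so its counts are a description.

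Pairs that include Site #3, whose rats came from another vendor, shared samples with the comparison above and are given beside it without a test between them. At an adjusted p under 0.05 in limma, 23 of 22664 genes (0.101%) separated Site #1 from Site #3 and 239 (1.05%) separated Site #2 from it, beside 0 for the pair above. The share of well expressed genes alike within 0.25 log2 units was 85.8% for Site #1 with Site #3, 80.8% for Site #2 with Site #3 and 80.4% for Site #1 with Site #2.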

How the data were processed

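The authors prepared polyadenylated RNA libraries, aligned the reads with HISAT2 to the rat genome rn6, counted them per Ensembl gene with featureCounts and used DESeq2, with no versions given in the sources used here. The authors deposited log2 values, normalized between libraries by a step that is not named, and their spread shrinks at low values. The labels and the study's methods name different library kits, and whether counting used strand is not given, so genes overlapping on opposite strands cannot be told apart.

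Replicates are separate rats. Site #2 minus Site #1 was fitted with limma 3.58.1 (R 4.3.3) with a mean-variance trend on the 11 libraries, with Benjamini-Hochberg adjustment over all genes not at exactly 0 in the 17 libraries. The fit was tested on simulated data. Likeness meant a 95% interval within 0.25 log2 units of 0, over genes with a mean of at least 8. Single values were tested by exact permutation. Symbols came from the study's supplementary gene tables; clone names and shared RNA family names were not used. Named genes with a symbol and a mean of at least 8 were the 12 with the smallest p, those with non-overlapping sites (at most 5), the 6 with the largest pooled SD and the 8 with the narrowest reach, plus the extremes of each list, all cell type genes and at most 4 genes without a symbol. Members and lists were chosen with earlier results of these data known. Alternatives were other limma settings, scalings, filters and margins, a replicate block and leaving out libraries.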

Additional observations from a re-analysis of the deposited data

Results flagged for a closer look

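A library far from the others of its site (the gap to the nearest one as a share of the site's range, given in parentheses) was found in 21 of 222 sets of values (9.46%). The cut-off is one that about 1 in 20 independent, unselected sets would pass. These sets were neither: they include genes named for a large SD, and list means that contain such genes. The share therefore does not show an excess of such libraries. No explanation was tested.

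Replicate 5 of Site #1 was the high library of that site for Col1a1 (0.939), Fmod (0.918), Col6a3 (0.797), the meninges and fibrous matrix mean (0.955) and the vessel mean (0.735), and the low one for Snx6 (0.759), at 10.55 against 10.68 to 10.73. Replicate 3 of Site #2 was high for Col1a1 (0.845), Fmod (0.856), Col6a3 (0.83), the meninges and fibrous matrix mean (0.845), Aqp1 (0.79) and P2rx4 (0.632). Col6a3 stood at 7.85 and 7.83 in these libraries, against at most 6.85 in the others.

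Replicate 4 of Site #2 was high for Gpr12 (0.713), Ajap1 (0.64), the chaperone mean (0.64) and ENSRNOG00000021255 (0.714). Replicate 4 of Site #1 was high for P2rx4 (0.78), at 9.82 against 9.46 to 9.54, and low for Gtf2i (0.887). At Site #2, replicate 6 was low for Ppm1d (0.661), replicate 1 high for Wdr3 (0.782) and replicate 5 low for Tf (0.754), at 14.58 against 14.86 to 14.96.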

How the results depend on the processing

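The count of genes at an adjusted p under 0.05 in limma stayed at 0 in the fit of all 17 libraries, without the trend, with robust estimation, array weights, median centring, quantile normalization, only genes with a mean of 5 or 8 and above, and the replicate block, with a smallest adjusted p of 0.0964 to 0.805. Leaving out 1 library gave 0 to 1 genes (smallest adjusted p 0.0109 to 0.855): 1 without replicate 5 of Site #1 and 1, a different gene, without replicate 1 of Site #2. At an unadjusted p under 0.05 these gave 1190 to 2124 genes. The genes alike numbered 3937 at a margin of 0.15 log2 units and 5552 among genes with a mean of at least 10 (83.0%), where fewer genes were counted. Neither permutation result passed 0.05 under any setting. Without replicate 5 of Site #1 the difference in distance from the rest of the site became 8.00e-05 (exact p = 0.995; range over libraries left out -0.028 to 8.00e-05); the cause was not tested.

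A block for replicate number gave 0 genes at an adjusted p under 0.05, 1250 at an unadjusted p under 0.05 and 7972 alike. The numbers did not pair the rats: same-numbered libraries correlated at -0.518 to 0.430 in their deviations from the site means, and 0 of 5 Site #1 libraries correlated best with their own number.

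Of the 18 well expressed genes named for a small p or for sites that did not overlap, none passed adjustment under any of 19 settings. Their signs did not turn, which their choice largely fixed. The 8 most alike genes reached at most 0.13 log2 units, against 0.078 as reported. Of 25 list medians, 9 turned sign under some setting, all by less than the SD between rats. Some others moved without turning, among them neuron (-0.073 to -0.027), ventral (-0.13 to -0.016), chromatin regulator (-0.048 to -0.0076) and trophic factor and hormone receptor (-0.079 to -0.0025). The values hold no counts, so the depth of each library and its counting error are unknown from them.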
